A study of Rattus norvegicus with 10 samples.

Results

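The genes described here are those of the lysosome and its proton pump in femoral skeletal muscle of the rat: cathepsins and other acid proteases, glycosidases and lipid enzymes with their cofactors, proteins of the lysosomal membrane, the transcription factor Tfeb, and the subunits and accessory proteins of the vacuolar proton pump (V-ATPase). A fixed list gave 29 of them by name, and the proton pump genes were taken by symbol, as every gene whose name starts with Atp6v or Atp6ap. The choice of genes uses no expression value, though the genes were put on the list with earlier results of these data known. Of 53 genes asked for, 52 were found among 15037 genes with a symbol on the array, 28 from the list and 24 of the proton pump, and 1 listed gene, Ctso, was dropped because the probe table used here does not name it. Each of the 52 has 1 probe set, the group of short probes from which the array makes that gene's value. The rule takes the probe set with the highest mean where a gene has more, which was not needed here.

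The muscle came from 10 adult wild-type male Wistar rats killed by cervical dislocation, 5 sampled at once (0 h of postmortem interval, PMI) and 5 after 48 h at 25 °C. The labels name no transgene and no agent, and each rat had an array of its own (Clariom S Rat). Values are log2 values made with RMA, in which 1 unit is a doubling of the signal. The tissue is bulk muscle, so fewer cells of a type and less RNA per cell cannot be told apart. By the paper, RNA integrity was checked on a gel at 0 h only. The check was left out at 48 h because strong degradation was expected. The part of RNA decay in the changes below was not tested.

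Lysosomes are acidic organelles that break down proteins, glycogen, lipids and glycoconjugates delivered by endocytosis and autophagy. Cathepsins and their partner proteases are made as inactive precursors and mature in the acid lumen, and most other hydrolases also need that acidity. The V-ATPase supplies it: the cytosolic V1 sector hydrolyses ATP and drives rotation, and the membrane V0 sector carries protons across. TFEB, a basic helix-loop-helix factor, drives many of these genes together in mammalian cells by binding a palindrome around an E-box in their promoters, and in muscle the system is known for clearing glycogen and worn organelles, as the glycogen storage of Pompe disease shows when acid alpha-glucosidase (Gaa) is missing.

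The promoters are shown first because that palindrome is the element through which TFEB is known to act on lysosomal genes, and its presence can be set beside the direction of change. RefSeq promoter windows of 300 bases on the assembly GRCr8, from 250 before to 50 after a gene's start, matched 42 of the 52 genes, and 10 had no entry. The letters TCACGTGA read the same on both strands and hold the shorter E-box CACGTG inside them. They occurred in 5 of the 42 genes (11.9%), where a gene counted if any of its windows held them. Over the whole set they occurred in 260 of 33469 windows (0.777%). Those windows belong to 27457 genes, and a share of genes is not the same measure as a share of windows. These 5 genes belong to 3 roles: Atp6v0d1 and Atp6v0e1 of the V0 sector, the protease Ctsd, and the membrane proteins Lamp1 and Mcoln1. CACGTG alone was in 7 of the 42 genes (16.7%) and in 2148 of all windows (6.42%), again unlike measures, the additional genes being Gaa and Ctsf. The runs printed here lie at chr19:50357283-50357312 (minus strand, Atp6v0d1), chr10:17007115-17007144 (minus, Atp6v0e1), chr1:206968814-206968843 (minus, Ctsd), chr16:83075111-83075140 (minus, Lamp1), chr12:6358250-6358279 (plus, Mcoln1) and chr10:105028277-105028304 (plus, Gaa). Each is read 5′ to 3′ along the gene, and the capitals mark TCACGTGA, or CACGTG for Gaa.
Atp6v0d1: ccccattgtggTCACGTGAgatgcagtgcg
Atp6v0e1: tcgcgcgccggTCACGTGAgcctctgttga
Ctsd: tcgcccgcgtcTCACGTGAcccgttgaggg
Lamp1: agaccctcggcTCACGTGAccggcgggcgc
Mcoln1: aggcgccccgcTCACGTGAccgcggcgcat
Gaa: cgcccacaaacCACGTGacccacgctgc
Lamp1 holds the longer palindrome at 2 places in its window. The 5 genes with it did not move one way: their log2 changes from 0 h to 48 h were -2.33 for Atp6v0d1, -0.42 for Atp6v0e1, -0.28 for Mcoln1, 0.89 for Lamp1 and 0.97 for Ctsd. That of Mcoln1 did not pass the test (limma adjusted p = 0.167). With another scaling, cyclic loess between the arrays, Atp6v0e1 (0.20) and Mcoln1 (0.10) were above 0, neither past the test. Atp6v0d1 (-2.14), Lamp1 (1.48) and Ctsd (1.45) kept their direction. A match of letters is a description of the window and not of binding.

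Array medians lay between 5.17 and 5.21 on the log2 scale, as the normalization makes them. The 23 background probe sets had a median of 3.10 ± 0.05 (SD, n = 5) at 0 h and 3.69 ± 0.12 at 48 h, so weak signals sat higher on the 48 h arrays. The tissue label was borne out: of 10 muscle fibre markers asked for, the 9 measured had a median level of 12.05 to 12.45 in the 0 h rats. Among them Myh2 read 7.68 in the 0 h rat 1, against 11.20 to 12.03 in the other 0 h rats. Mb in that rat read 9.63, against 11.03 to 11.62. By 48 h 6 of the 9 markers fell (66.7%, against 54.2% of probe sets with a mean above 8 over the 0 h arrays) and the other 3 were lower by less than 2-fold. Their summed signal, on the log2 scale, went from 15.60 to 15.63 at 0 h to 13.74 to 14.71 at 48 h. Macrophages, which are rich in lysosomes, have 12 markers on the array. Of these Csf1r fell (8.33%, against 12.1% of all probe sets), 3 were lower by less than 2-fold and 8 did not pass the test. The summed signal of these markers lay between 9.20 and 9.62 at 0 h and between 8.95 and 9.28 at 48 h. Of 6 measured neutrophil markers 1 rose (S100a9, 16.7%, against 4.35% of all probe sets) and 1 was higher by less than 2-fold. Their summed signal was 6.42 to 6.99 at 0 h and 7.15 to 7.56 at 48 h. The median level of these markers was only 3.47 to 3.73 in the 0 h rats, near that of the background probe sets, which were also higher at 48 h. No marker can read 0 on this scale, and the part of these cells in the results below was not tested.

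A gene is said to have risen or fallen when its fold change was at least 2 and its adjusted p under 0.05 in limma, with Benjamini-Hochberg adjustment over all 23188 probe sets tested. By that rule 4 of the 52 genes rose (7.69%; 4.35% of all probe sets rose) and 8 fell (15.4%; 12.1% of all probe sets fell). At an adjusted p under 0.05 without the fold, 13 genes were higher (25.0%, against 22% of all probe sets) and 13 lower (25.0%, against 22.8%). The 5 rats of one time did not overlap the 5 of the other for 12 genes that were higher (23.1%, against 13.4%) and 8 that were lower (15.4%, against 17.7%). The median log2 change of the 52 was 0.04, and that of all probe sets was 0.10. The genes that fell were 6 V1 subunits and the V0 subunit d1, together with the protease Ctsk. The genes that rose were the proteases Ctsa and Tpp1, the glycogen enzyme Gaa and the sphingolipid cofactor precursor Psap. All 4 rises are relative to the other genes on the array: with each array centred on its 4 Bacillus control probe sets in place of the RMA scale, the median of all probe sets was -1.97 and the 4 stood at -0.88 to -1.01, a centring that leaves each of them 0.96 to 1.09 above that median by construction. The count that rose moved most with the 48 h rat 5. Without that rat it was 7, with Ctsd, Npc1 and Lamp1 added, and leaving out any other rat gave 4 or 5. Without the 48 h rat 4 Tpp1 was at 0.98, just under 2-fold, but the count stayed at 4 because another gene passed.

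**Figure D1:**
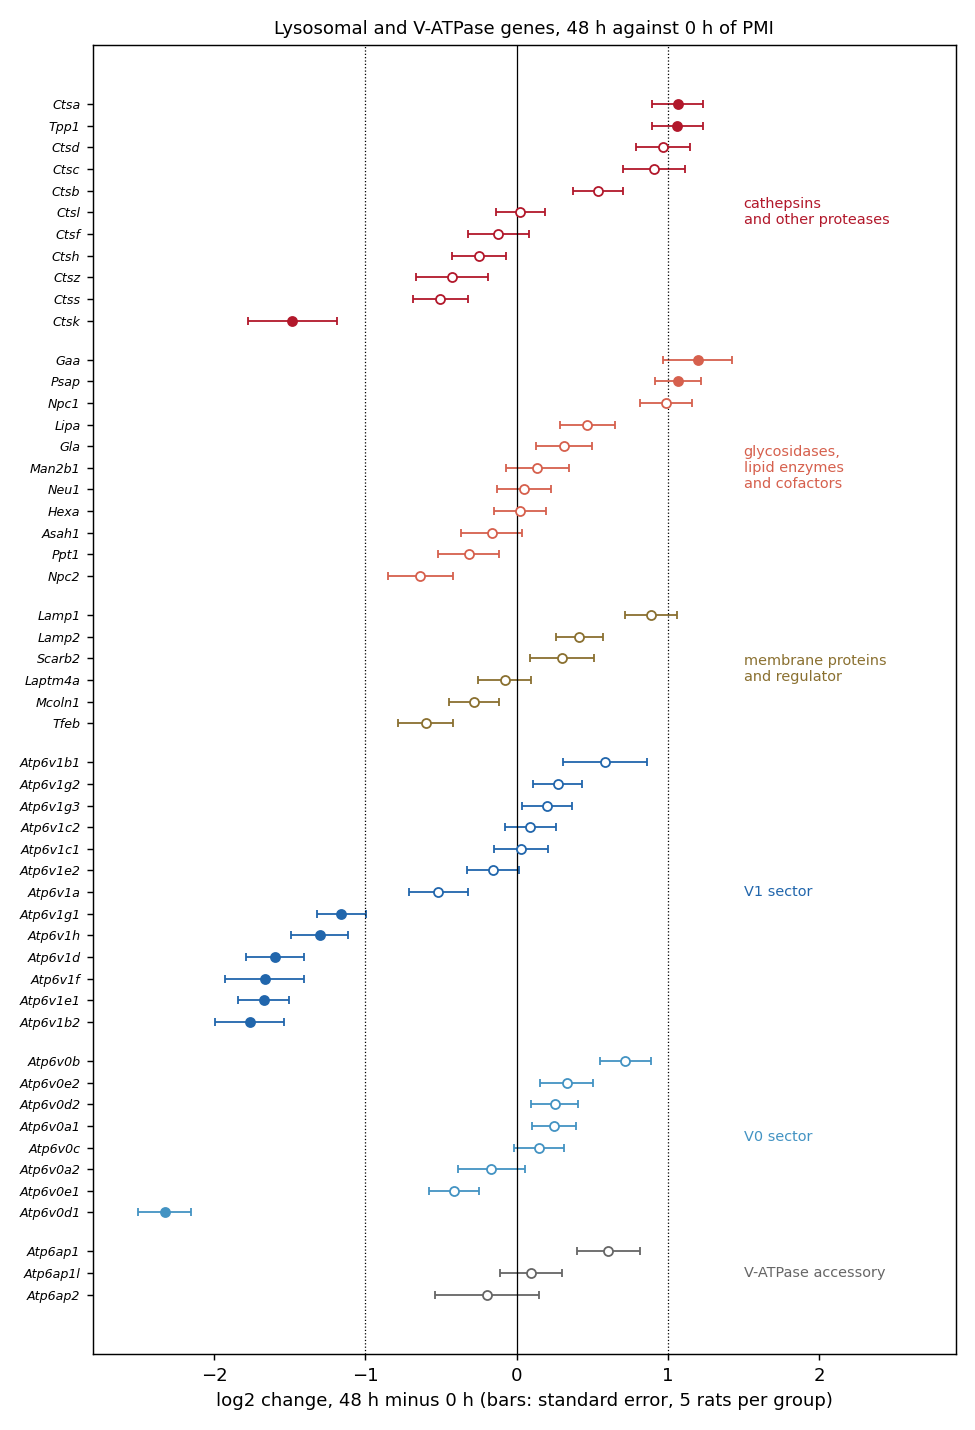
Log2 change from 0 h to 48 h (x axis) for each of the 52 genes (y axis), grouped by role, with bars for the standard error of the fitted difference over 5 rats per group. Filled points are the 4 genes that rose and the 8 that fell, dotted lines mark a 2-fold change, and the cluster of filled V1 points lies between -1.16 and -1.76. With arrays centred on the Bacillus controls every point moves to the left of 0.

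The V1 sector is the catalytic head of the pump. Of its 13 genes on the array none rose, 6 fell (46.2%, against 12.1% of all probe sets and 25.2% of genes with a symbol above the median level), 1 was lower by less than 2-fold and 6 did not pass the test, and the median change was -0.52. Atp6v1b2 encodes the B2 subunit, which forms the ATP-binding hexamer with subunit A. It read 7.18, 7.69, 7.54, 7.86 and 7.45 in the 0 h rats and 5.80, 5.42, 6.50, 5.17 and 6.02 in the 48 h rats. The highest 48 h rat stayed below the lowest 0 h rat, and Atp6v1b2 fell by 1.76 ± 0.23 on the log2 scale (3.4-fold, limma adjusted p = 8.61e-06).

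Atp6v1e1 encodes subunit E1, part of the peripheral stalks that hold the head still while the rotor turns. Its values were 7.81, 8.17, 8.26, 8.46 and 8.06 at 0 h and 6.57, 6.38, 6.23, 6.71 and 6.51 at 48 h. No 48 h rat came within a unit of the 0 h rats, and the loss of 1.67 ± 0.17 was 3.18-fold (adjusted p = 5.75e-07). Atp6v1f, a subunit of the central rotor, gave 9.46, 9.33, 9.59, 9.46 and 9.45 at 0 h and 8.61, 7.04, 7.97, 7.06 and 8.28 at 48 h. The 0 h rats were tight and the 48 h rats wide, with rats 2 and 4 far below rats 1 and 5, yet the groups were apart and Atp6v1f fell by 1.67 ± 0.26 (3.17-fold, adjusted p = 6.97e-05).

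The other 3 V1 genes that fell also had groups that did not overlap. Atp6v1d, the rotor subunit D, went from 9.51 ± 0.15 to 7.92 ± 0.39 (mean ± SD, n = 5; change -1.60 ± 0.19, adjusted p = 3.62e-06). Atp6v1h, the subunit that couples V1 to V0 and keeps free V1 inactive, went from 6.86 ± 0.02 to 5.56 ± 0.41 (change -1.30 ± 0.19, adjusted p = 3.09e-05). Atp6v1g1, the stalk partner of E1, went from 8.51 ± 0.12 to 7.35 ± 0.24 (change -1.16 ± 0.16, adjusted p = 2.18e-05). After cyclic loess between the arrays Atp6v1d (-0.99) and Atp6v1g1 (-0.61) were lower by less than 2-fold and no longer counted as fallen. Atp6v1a, which encodes subunit A, the catalytic partner of B2, was lower by 0.52 ± 0.19 (adjusted p = 0.0388), under 2-fold, and its rats overlapped between the times. After cyclic loess Atp6v1a was at -0.40 and did not pass the test (adjusted p = 0.124).

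Subunit C, which bridges the stalks and leaves when the pump comes apart, has a broad and a narrow form. Atp6v1c1, the widely expressed form, read 6.55, 5.74, 5.92, 6.24 and 6.35 at 0 h and 6.23, 6.03, 6.05, 6.22 and 6.41 at 48 h. Both sets of rats lay over each other, with a change of 0.03 ± 0.18 (adjusted p = 0.905). Atp6v1c2, a form of few tissues, was near background with 3.47, 3.39, 3.83, 3.57 and 3.38 at 0 h and 3.56, 3.95, 3.58, 3.73 and 3.28 at 48 h. It gave a change of 0.09 ± 0.17 (adjusted p = 0.688).

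The remaining V1 genes encode forms with narrow expression in mouse and human: B1 of kidney and inner ear, E2 of testis, G2 of brain and G3 of kidney. Their changes were 0.58 ± 0.28 for Atp6v1b1 (adjusted p = 0.0961), -0.16 ± 0.17 for Atp6v1e2 (adjusted p = 0.481), 0.27 ± 0.16 for Atp6v1g2 (adjusted p = 0.186) and 0.20 ± 0.17 for Atp6v1g3 (adjusted p = 0.333). None passed the test. Within this sector the broad forms B2, E1 and G1 thus fell on the RMA scale, the broad form C1 did not, and no narrow form had a change past the test. Except for G2, the narrow forms had 0 h means of only 3.53 to 4.37. The background median was 3.10 at 0 h and 3.69 at 48 h, so these forms had little room to fall.

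The V0 sector is the membrane turbine, a ring of proteolipids with subunits a, d and e. Of its 8 genes none rose and Atp6v0d1 fell (12.5%, near the 12.1% of all probe sets). Atp6v0b was higher and Atp6v0e1 lower by less than 2-fold, and 5 did not pass the test. Atp6v0d1 encodes the collar that joins the ring to the rotor of V1, and it had the largest change of the 52 genes. The 0 h rats read 7.42, 7.08, 7.23, 6.92 and 7.05 and the 48 h rats 4.99, 5.13, 4.86, 4.63 and 4.45. The groups lay far apart with little spread in either, and Atp6v0d1 fell by 2.33 ± 0.17 (5.02-fold, adjusted p = 2.95e-08).

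The proteolipid ring did not share that course. Atp6v0b, a ring subunit, was higher in each 48 h rat than in any 0 h rat, from 9.18 ± 0.15 to 9.90 ± 0.25 (mean ± SD, n = 5; change 0.72 ± 0.17, adjusted p = 0.00219). Atp6v0c, the main ring subunit, read 9.02, 9.01, 9.23, 8.91 and 8.87 at 0 h and 8.93, 9.07, 9.23, 9.56 and 8.97 at 48 h. The 48 h rat 4 stood above the 0 h rats while the others lay within or at the edge of their range, and the change was 0.14 ± 0.17 (adjusted p = 0.495).

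Subunit a holds the paths by which protons enter and leave the ring. Atp6v0a2, its form of endosomes and Golgi, gave 5.97, 6.55, 5.94, 5.88 and 6.24 at 0 h and 5.88, 6.57, 6.21, 5.29 and 5.79 at 48 h. The groups overlapped, with a change of -0.17 ± 0.22 (adjusted p = 0.553). Atp6v0a1 shifted by only 0.24 ± 0.15 and did not pass the test (adjusted p = 0.184), although no 48 h rat was as low as the highest 0 h rat. Atp6v0e1 was lower by 0.42 ± 0.16 (adjusted p = 0.0489) with overlapping rats. After cyclic loess Atp6v0e1 was at 0.20 and did not pass the test (adjusted p = 0.356). The changes of Atp6v0d2, a form of osteoclasts and kidney, and of Atp6v0e2 were 0.25 ± 0.16 (adjusted p = 0.197) and 0.33 ± 0.18 (adjusted p = 0.135).

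Accessory proteins help to assemble and sort the pump. Atp6ap1, which has a part in V0 assembly, was higher by 0.60 ± 0.21 (adjusted p = 0.0265), under 2-fold and with the 48 h rat 5 below all 0 h rats. Atp6ap2, the prorenin receptor, read 6.50, 6.57, 6.32, 6.33 and 6.50 at 0 h and 7.30, 6.41, 6.29, 4.57 and 6.69 at 48 h. The 48 h rat 4 stood well below all others, and the change of -0.19 ± 0.34 did not pass the test (adjusted p = 0.668) and turned to 0.23 without that rat. Atp6ap1l, a relative of Atp6ap1, read 4.42, 3.94, 4.29, 4.19 and 4.58 at 0 h and 4.46, 3.97, 3.89, 4.77 and 4.81 at 48 h. The ranges overlapped and the change was 0.09 ± 0.21 (adjusted p = 0.734).

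Because both forms of a subunit sit on the same array, a shift common to all probe sets cancels in their difference within a rat, while a scaling that varies with signal level does not. These pairs were chosen after the values were seen and carry no test, and a difference between probe sets shows how far apart they moved, not which form is more abundant. Atp6v0d1 minus Atp6v0d2 lay between 2.50 and 2.83 in the 0 h rats and between -0.42 and 0.51 in the 48 h rats. Atp6v1b2 minus Atp6v1b1 went from 3.08 to 3.79 at 0 h to -0.73 to 2.41 at 48 h. In both pairs every 48 h rat had a smaller difference than every 0 h rat, and after cyclic loess the mean shifts were -2.20 (-2.58 on the RMA scale) and -1.75 (-2.35), again without overlap. Atp6v1g1 also lost ground to Atp6v1g2 (-1.43, and -0.93 after cyclic loess) and to Atp6v1g3 (-1.36, and -0.59), with no overlap on either scale. For Atp6v0e1 minus Atp6v0e2 the shift of -0.75, without overlap on the RMA scale, came to -0.03 with overlap after cyclic loess. No difference is given for subunits E and C, since Atp6v1e2 and Atp6v1c2 had means of 3.55 and 3.62 at 48 h, not above the background median of 3.69. The ranges of Atp6v0a1 minus Atp6v0a2 overlapped between the times on both scales. The narrow forms lay lower on the array, where the background probe sets were also higher at 48 h, and the part of that in these shifts was not tested.

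**Figure D2:**
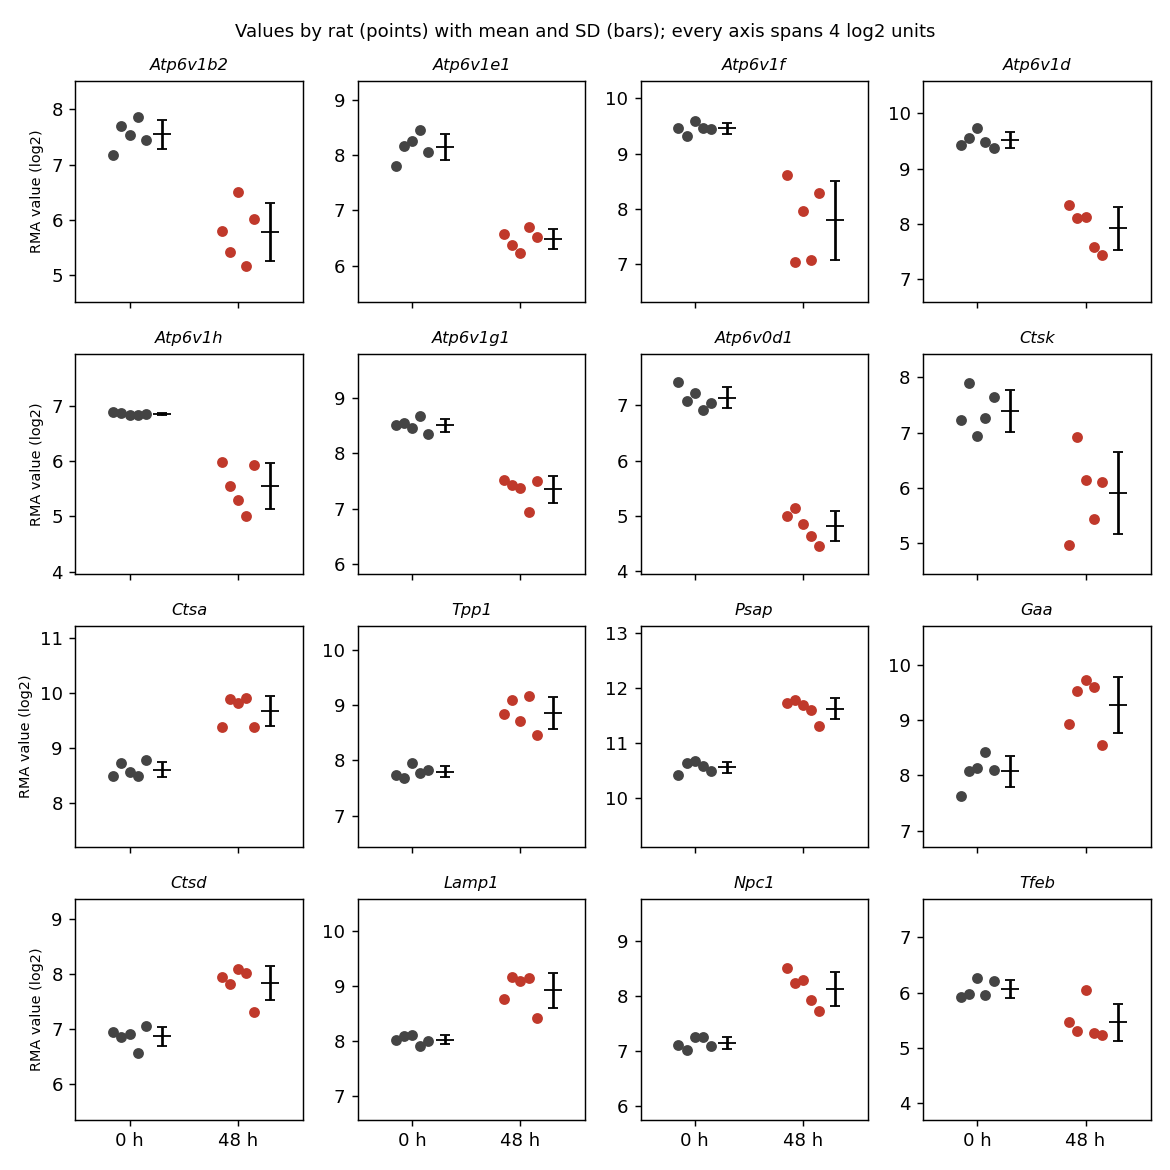
RMA values on the log2 scale (y axis, each panel spanning 4 units) of 16 genes in the 5 rats at 0 h (grey) and the 5 at 48 h (red), with the mean and SD beside the points. In the first 8 panels, 6 V1 genes, Atp6v0d1 and Ctsk, every 48 h rat lies below every 0 h rat. In the next 7, Ctsa to Npc1, every 48 h rat lies above on the RMA scale, while with arrays centred on the Bacillus controls the mean changes of these 7 lie below 0, and the 48 h rat 3 of Tfeb overlaps the 0 h rats.

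The cathepsins and partner proteases went both ways. Of 11 genes 2 rose (18.2%, against 4.35% of all probe sets) and 1 fell (9.09%, against 12.1%). A further 3 were higher and 1 lower by less than 2-fold and 4 did not pass the test, and the median change was 0.02. Ctsa, the serine carboxypeptidase that also protects neuraminidase and beta-galactosidase, read 8.49, 8.73, 8.56, 8.48 and 8.78 at 0 h and 9.39, 9.88, 9.81, 9.90 and 9.38 at 48 h. Every 48 h rat was above every 0 h rat, and Ctsa rose by 1.06 ± 0.17 (2.09-fold, adjusted p = 7.24e-05). Tpp1, the tripeptidyl peptidase lost in a form of Batten disease, read 7.74, 7.69, 7.95, 7.77 and 7.82 at 0 h and 8.85, 9.09, 8.72, 9.17 and 8.45 at 48 h. Again the groups were apart, and Tpp1 rose by 1.06 ± 0.17 (2.09-fold, adjusted p = 7.84e-05).

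Another 3 proteases were higher with groups that did not overlap, each under 2-fold. Ctsd, the main aspartic protease of lysosomes, went from 6.86 ± 0.18 to 7.83 ± 0.31 (mean ± SD, n = 5; change 0.97 ± 0.18, adjusted p = 0.000327). Ctsc, the dipeptidyl peptidase that activates granule serine proteases, went from 7.96 ± 0.21 to 8.86 ± 0.44 (change 0.90 ± 0.20, adjusted p = 0.00182). Ctsb, an abundant cysteine protease, went from 9.20 ± 0.21 to 9.74 ± 0.21 (change 0.54 ± 0.17, adjusted p = 0.015).

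Ctsk, the collagen-cutting protease best known from osteoclasts and also made by fibroblasts, was the 1 protease that fell. The 0 h rats read 7.23, 7.89, 6.94, 7.27 and 7.65 and the 48 h rats 4.97, 6.92, 6.14, 5.44 and 6.10. The 48 h rats were widely spread, from rat 1 at the bottom to rat 2 just under the lowest 0 h rat, and Ctsk fell by 1.48 ± 0.29 (2.79-fold, adjusted p = 0.000588). Fibroblast markers moved the same way: 5 of 7 fell (71.4%, against 12.1% of all probe sets), among them Lum, Col1a1 and Dcn, and 1 was lower by less than 2-fold. Their median 0 h level was 9.78, and of all probe sets with a mean above 8 over the 0 h arrays 54.2% fell. The summed signal of the markers went from 12.84 to 13.45 at 0 h to 11.81 to 12.09 at 48 h. The part of fibroblasts in the loss of Ctsk was not tested. Ctss, a protease of antigen-presenting cells, was lower by 0.50 ± 0.18 (adjusted p = 0.0337), under 2-fold and with overlap, beside the macrophage markers given earlier.

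Ctsl, a broad cysteine protease that rises in wasting muscle, read 8.52, 8.58, 8.61, 8.40 and 8.72 at 0 h and 8.36, 8.74, 8.87, 8.63 and 8.36 at 48 h. The groups covered the same range, with a change of 0.02 ± 0.16 (adjusted p = 0.911). Ctsf, another cysteine protease, read 6.0, 6.30, 5.89, 6.63 and 5.95 at 0 h and 6.15, 6.58, 5.88, 5.92 and 5.63 at 48 h. It too overlapped, with -0.12 ± 0.20 (adjusted p = 0.642). The aminopeptidase Ctsh and the carboxypeptidase Ctsz changed by -0.25 ± 0.18 (adjusted p = 0.265) and -0.43 ± 0.24 (adjusted p = 0.154), neither past the test. Ctsb and Ctsl, close relatives in function, were thus on different sides of the test on the RMA scale. Ctsb (1.17) and Ctsl (0.62) were higher and past the test after cyclic loess. The difference between their changes was not itself tested.

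Among the 11 glycosidases, lipid enzymes and cofactors 2 rose (18.2%, against 4.35% of all probe sets) and none fell (against 12.1%). A further 2 were higher and 1 lower by less than 2-fold and 6 did not pass the test, with a median change of 0.14. Gaa, the acid alpha-glucosidase that degrades glycogen in the lysosome, had the largest rise of the 52 genes. It read 7.63, 8.08, 8.14, 8.42 and 8.11 at 0 h and 8.94, 9.54, 9.74, 9.59 and 8.55 at 48 h. The lowest 48 h rat, rat 5, was only just above the highest 0 h rat, and Gaa rose by 1.19 ± 0.23 (2.29-fold, adjusted p = 0.000427).

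Psap encodes prosaposin, the precursor of the saposins that present sphingolipids to their hydrolases. Its values were 10.42, 10.63, 10.67, 10.57 and 10.50 at 0 h and 11.73, 11.78, 11.70, 11.60 and 11.31 at 48 h. The rats of each time were close together and the times well apart, and Psap rose by 1.07 ± 0.15 (2.09-fold, adjusted p = 3.03e-05). Hexa, the alpha subunit of beta-hexosaminidase A, read 7.76, 7.87, 7.68, 7.87 and 8.24 at 0 h and 7.85, 8.26, 8.04, 7.76 and 7.61 at 48 h. There was no separation, with a change of 0.02 ± 0.17 (adjusted p = 0.929). After cyclic loess Hexa was higher by 0.57 (adjusted p = 0.0132). Neu1, the lysosomal sialidase, read 4.52, 4.72, 4.63, 4.89 and 4.61 at 0 h and 4.54, 4.72, 4.26, 5.06 and 5.01 at 48 h. These rats overlapped too, with 0.05 ± 0.18 (adjusted p = 0.849).

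Npc1 and Npc2 pass cholesterol out of the lysosome in turn, Npc2 in the lumen and Npc1 in the membrane. They lay on opposite sides on the RMA scale. Npc1 was higher by 0.99 ± 0.17 (adjusted p = 0.000192), just under 2-fold, from 7.14 ± 0.11 to 8.13 ± 0.31 (mean ± SD, n = 5) with no overlap. Npc2 was lower by 0.64 ± 0.21 (adjusted p = 0.0234), with its 48 h rats from 6.45 to 7.83 and its 0 h rats from 7.74 to 8.11. After cyclic loess Npc2 changed by -0.12 and did not pass the test (adjusted p = 0.696), while Npc1 was higher by 1.51. Lipa, the acid lipase that frees cholesterol from its esters, was higher by 0.47 ± 0.18 (adjusted p = 0.0449) with overlap. Not past the test were the alpha-galactosidase Gla (0.31 ± 0.19, adjusted p = 0.184), the alpha-mannosidase Man2b1 (0.14 ± 0.21, adjusted p = 0.609), the ceramidase Asah1 (-0.17 ± 0.20, adjusted p = 0.52) and the thioesterase Ppt1 (-0.32 ± 0.20, adjusted p = 0.212).

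Of the 5 membrane proteins and Tfeb, 2 were higher and 1 lower by less than 2-fold and none rose or fell. Lamp1 and Lamp2 are the heavily glycosylated proteins that line the lysosomal membrane, and Lamp2 is the gene of Danon disease of muscle and heart. Lamp1 went from 8.03 ± 0.08 to 8.92 ± 0.32 (mean ± SD, n = 5; change 0.89 ± 0.17, adjusted p = 0.000506) and Lamp2 from 9.80 ± 0.12 to 10.21 ± 0.20 (change 0.41 ± 0.16, adjusted p = 0.0412). In both, each 48 h rat was above each 0 h rat. Scarb2, the receptor that carries glucocerebrosidase to lysosomes, changed by 0.30 ± 0.21 and did not pass the test (adjusted p = 0.266).

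Laptm4a, a small protein of the late endosomal and lysosomal membrane, read 11.06, 10.82, 10.70, 10.90 and 10.89 at 0 h and 10.77, 10.96, 10.98, 10.99 and 10.27 at 48 h. Only the 48 h rat 5 lay apart, on the low side, and the change was -0.08 ± 0.17 (adjusted p = 0.727). Mcoln1, the calcium channel whose opening leads to activation of TFEB, read 6.82, 6.86, 6.96, 6.94 and 6.87 at 0 h and 6.35, 6.34, 6.97, 6.75 and 6.63 at 48 h. The 0 h rats were tight and 4 of the 48 h rats were below all of them, but rat 3 was not, and the change of -0.28 ± 0.16 did not pass the test (adjusted p = 0.167).

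Tfeb itself read 5.92, 5.97, 6.27, 5.95 and 6.21 at 0 h and 5.46, 5.30, 6.05, 5.26 and 5.24 at 48 h. The 48 h rats lay below the 0 h rats except rat 3, and Tfeb was lower by 0.60 ± 0.18 (1.52-fold, adjusted p = 0.0127), under 2-fold. Its transcript level is no measure of its activity, which depends on where the protein is in the cell.

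Most of the genes gave a brighter signal than the array's median, and change on the array went with level, bright probe sets being lower at 48 h on balance. Of the 52, 41 lay above the median level of all probe sets; 4 of these rose (9.76%, against 4.03% of the 8037 genes with a symbol above that level) and 8 fell (19.5%, against 25.2%). None of the 11 at or below the median level rose or fell. Counts among the brightest genes depended on which arrays set the limit, since a gene's own change helps to decide whether it passes, and limits were chosen after the values were seen. With a mean above 8 over the 0 h arrays, 3 of 19 genes rose (15.8%, against 2.5% of 2201 probe sets) and 4 fell (21.1%, against 54.2%). Those that fell were Atp6v1d, Atp6v1e1, Atp6v1f and Atp6v1g1, and those that rose were Ctsa, Gaa and Psap. With a mean above 8 over all 10 arrays, 4 of 19 rose (21.1%, against 6.19% of 1567 probe sets) and 2 fell (10.5%, against 37.2%), as Tpp1 entered through its 48 h values and Atp6v1e1 and Atp6v1g1 dropped out through theirs. The median change of the bright genes was 0.24 by the first limit, beside -1.14 for all bright probe sets, and 0.41 by the second, beside -0.66. By the second limit, arrays centred on the Bacillus controls put both medians below 0, at -1.66 and -2.73. These shares describe a family on one set of 10 arrays and carry no test.

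**Figure D3:**
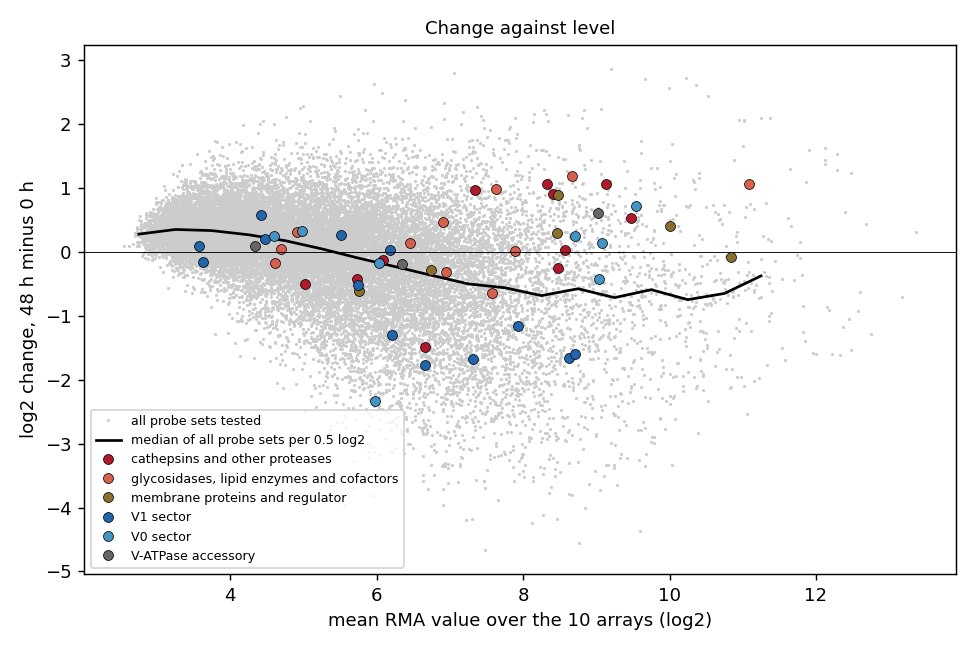
Log2 change from 0 h to 48 h (y axis) against the mean RMA value over the 10 arrays (x axis, log2) for all probe sets tested (grey) and the 52 genes (coloured by role), with the median of all probe sets in steps of 0.5 units (black line). The line falls below 0 to the right, where most proteases, lipid enzymes and membrane proteins (red, orange and brown) lie above it and the V1 genes that fell (dark blue) below it.

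The rats spread more at 48 h, as they did across the array. The SD was larger at 48 h than at 0 h for 48 of the 52 genes (92.3%) and for 85.5% of all probe sets, and its median went from 0.17 to 0.31 over the genes and from 0.19 to 0.37 over all probe sets. Atp6ap2 had the widest 48 h group, with an SD of 1.02, followed by Ctsk with 0.74. Among the 12 genes that rose or fell, Atp6v1e1 was the exception, with an SD of 0.24 at 0 h and 0.18 at 48 h.

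Other genes of the pathway were taken from lists drawn up by role. Of 20 further lysosomal hydrolases measured of 28 asked for, Arsb rose (1.19 ± 0.26, adjusted p = 0.00123) and Glb1 fell (-1.13 ± 0.22, adjusted p = 0.000614). Each is 5% of the 20, against 4.35% of all probe sets that rose and 12.1% that fell. A further 3 were higher and 1 lower by less than 2-fold and 14 did not pass the test, with a median change of 0.14. Arsb removes sulphate from dermatan and chondroitin sulphate, and Glb1 is the beta-galactosidase that Ctsa protects. Of 17 further membrane proteins none rose and Laptm5 of blood cells fell (-1.06 ± 0.20, adjusted p = 0.000511), 5.88% against 12.1% of all probe sets. Among the others 3 were higher and 4 lower by less than 2-fold, and the median of the 17 was -0.18. Cystatins inhibit the cysteine cathepsins. Of 6 on the array, Cst3 (0.74 ± 0.16, adjusted p = 0.00112) and Cst6 were higher and Cstb lower, all by less than 2-fold. Of 9 cathepsins outside the list, Cts7 rose (1.08 ± 0.24, adjusted p = 0.0015), 11.1% against 4.35% of all probe sets, and 3 were higher by less than 2-fold. They are for the most part proteases of placenta, stomach and lymphocytes, and their median level lay between 3.50 and 3.69 in the 0 h rats, near that of the background probe sets, which were also higher at 48 h.

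Newly made enzymes reach the lysosome through sorting receptors and coat proteins. Of 12 sorting genes measured of 15 asked for, none rose and 2 fell (16.7%, near the 12.1% of all probe sets): Vps35, a retromer subunit that returns sorting receptors to the Golgi (-1.67 ± 0.30, adjusted p = 0.000231), and Ap1g1, a subunit of the clathrin adaptor AP-1 (-1.18 ± 0.21, adjusted p = 0.000194). Another 4 were lower by less than 2-fold, among them Igf2r, the large mannose 6-phosphate receptor (-0.67 ± 0.21, adjusted p = 0.014). The median was -0.33, and that of all probe sets with a mean level between 6 and 7 was -0.28.

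The list of lysosomal signalling and transcription genes, with the amino acid sensing complex on the lysosomal surface and the relatives of Tfeb, was measured for 17 genes. None rose, 7 fell (41.2%, against 12.1% of all probe sets and 25.2% of genes with a symbol above the median level), 6 were lower and 2 higher by less than 2-fold, and 2 did not pass the test, with a median change of -0.88. Rragd and Rraga, GTPases that bring mTORC1 to the lysosome, both fell (-3.08 ± 0.24, adjusted p = 5.31e-08, and -2.76 ± 0.18, adjusted p = 1.04e-08). Lamtor2, of the scaffold that anchors them beside the V-ATPase, fell by 1.55 ± 0.19 (adjusted p = 5.09e-06). The other 4 that fell were Flcn and Fnip1, which act on the Rag GTPases, and the scaffold genes Lamtor1 and Lamtor3. Mitf, a relative of Tfeb, was lower by 0.88 ± 0.20 (adjusted p = 0.00162), and Tfec, another, was higher by 0.67 ± 0.17 (adjusted p = 0.00451), both under 2-fold. Of the pump's partner proteins 7 were measured of 12 asked for: Oxr1 fell by 2.77 ± 0.21 (adjusted p = 4.02e-08) and Tmem199, a V0 assembly factor, fell by 1.95 ± 0.19 (adjusted p = 3.89e-07). These are 28.6% of the 7, against 12.1% of all probe sets and 25.2% of genes with a symbol above the median level. Wdr7 was lower by less than 2-fold and 4 did not pass the test. Tcirg1, the a3 subunit, named after its value was seen because its symbol lies outside the rule, changed by 0.37 ± 0.20 (adjusted p = 0.147).

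**Figure D4:**
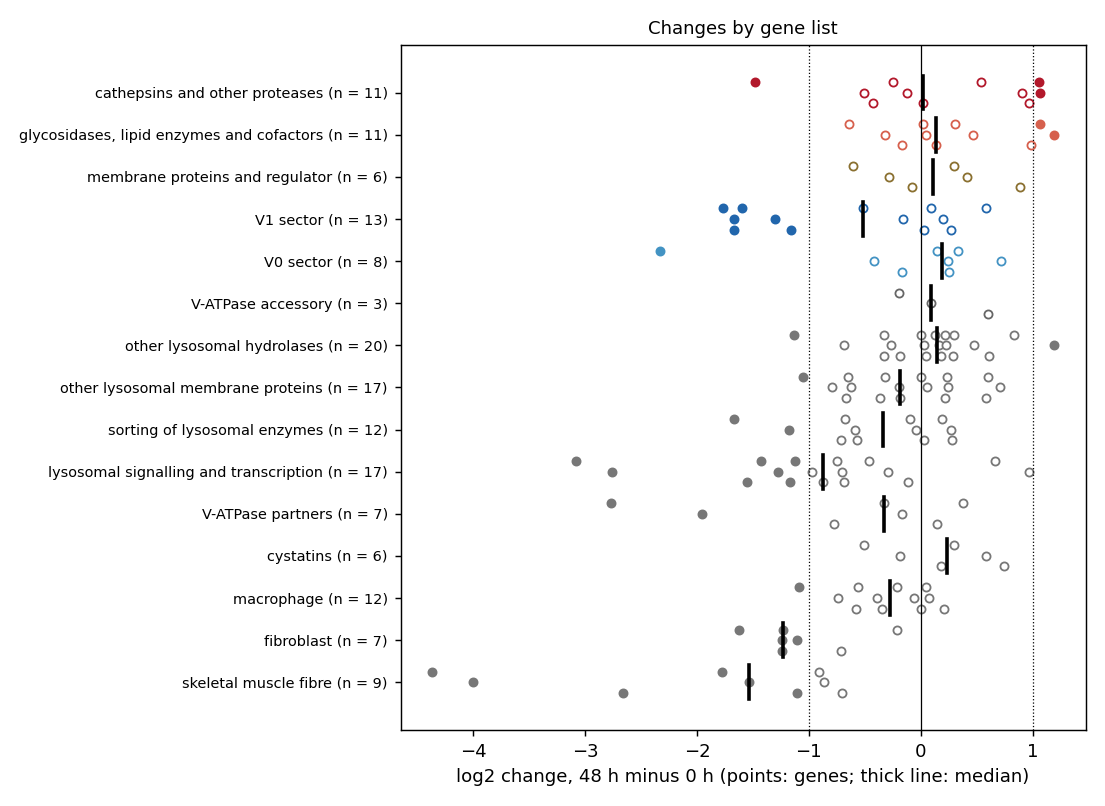
Log2 change from 0 h to 48 h (x axis) of each gene (points, filled where the gene rose or fell) in the 6 roles and in 9 other lists (y axis, with the number of genes measured), with a thick line at each median and dotted lines at a 2-fold change. Medians lie at -0.52 for the V1 sector and -0.88 for lysosomal signalling, and between 0.02 and 0.19 for the other 5 roles on the RMA scale; centring on the Bacillus controls moves all of them below 0.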

How the data were processed

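RNA of femoral muscle from 10 male Wistar rats, 5 at 0 h and 5 at 48 h of PMI by the sample labels, was hybridized to Clariom S Rat arrays, each rat to 1. The authors labeled it with a 3′ IVT Pico kit. The deposited log2 values were made with RMA, and the submitters' processing notes name the Transcriptome Analysis Console 4.0 and the build rn6. RMA brings all arrays to a common scale, so a shift shared by all transcripts is not visible. The deposited values were alike in their medians but not at their ends. Their 99th percentile was 10.64 to 10.72 on the 0 h arrays and 9.82 to 10.02 on the 48 h arrays, while the background probe sets were higher at 48 h. The table holds 24834 probe sets, 1646 of them controls that were left out, and 23188 were tested. Symbols were taken from the probe annotation of the platform. The number of arrays limits the precision.

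In R 4.3.3, limma 3.58.1 was fitted to both groups (lmFit, then eBayes; two-sided, 8 residual degrees of freedom) with Benjamini-Hochberg adjustment over all 23188 probe sets, after a check on simulated data. A gene rose or fell if its fold reached 2 with an adjusted p under 0.05, and the study's methods used the raw p in place of the adjusted one. A change is the difference of group means, 48 h minus 0 h, and ± is its standard error unless an SD is named. Per-rat values are given, in each role, for up to 3 genes that rose and 3 that fell by the largest change, for the 2 nearest to no change and for Tfeb. From other lists up to 3 that rose and 3 that fell were named, with a few more chosen after their values were seen. The members and lists were chosen with earlier results of these data known. Alternatives covered scaling, moderation, a level filter, left-out rats and the rat number as a block. Promoter windows are from RefSeq (GRCr8), used for sequence and not for the probes' positions. Figures were drawn with matplotlib 3.10.9.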

Additional observations from a re-analysis of the deposited data

Results flagged for a closer look

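For each of the 52 genes the rats of each time were tested for a single value far from the other 4, with Dixon's criterion for 5 values. Of 104 groups 8 were marked, and chance alone marks about 5% of groups. At 48 h, rat 4 was the lowest for Atp6v1g1 (6.93, the others 7.37 to 7.52) and the highest for Atp6v1g3 (5.03, the others 4.39 to 4.52), so the same rat stood out in opposite directions for different forms of subunit G. Rat 2 was the lowest for Atp6v1e2 (3.15, the others 3.62 to 3.68) and the highest for Lamp2 (10.57, the others 10.09 to 10.17). Rat 3 was the highest for Tfeb (6.05, the others 5.24 to 5.46), inside the range of the 0 h rats. At 0 h, rat 1 was the highest for Asah1 (5.21, the others 4.45 to 4.63) and for Scarb2 (8.72, the others 8.13 to 8.30), and rat 4 was the highest for Atp6v1g2 (5.68, the others 5.26 to 5.35).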

How the results depend on the processing

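Of the 52 genes 4 rose and 8 fell, with a median change of 0.04. After cyclic loess 12 rose and 6 fell, with a median of 0.20: Ctsb, Ctsc, Ctsd, Lamp1, Lamp2, Npc1, Atp6v0b and Atp6ap1 passed 2-fold, and Atp6v1g1 (-0.61) and Atp6v1d (-0.99) no longer did. Under 2-fold, Scarb2 (0.89), Atp6v0a1 (0.85), Atp6v0c (0.76), Ctsl (0.62), Laptm4a (0.59) and Hexa (0.57) came to pass the test as higher. Atp6v1e2 (-0.47) came to pass it as lower. Atp6v1a (-0.40), Npc2 (-0.12) and Atp6v0e1 (0.20) no longer passed it. With arrays centred on olfactory receptors 0 rose and 12 fell, with a median of -0.50 for the genes and -0.44 for all probe sets. With arrays centred on the Bacillus controls 0 rose and 51 fell (median -2.03, all probe sets -1.97), since that centring lowers every change alike. Of the 52 genes 29 had a change above 0 on the RMA scale, 11 with the olfactory centring and 0 with the Bacillus centring. The 4 that rose on the RMA scale were then at -1.01 (Tpp1), -1.01 (Ctsa), -1.005 (Psap) and -0.88 (Gaa). By the adjusted p alone 13 were higher and 13 lower. Leaving out 1 rat gave 4 to 7 that rose (7 without the 48 h rat 5), 8 to 8 that fell and medians of 0.02 to 0.08. With the rat number as a replicate block 4 rose, 8 fell and no call changed. Rats of the same number share only that number: correlations of their deviations ran from -0.00416 to 0.0761, and 3 of 5 0 h rats correlated best with their own number. Trend and robust moderation, no moderation and the probe sets above the median level (41 genes) kept both counts. Averaging probe sets changed nothing, as each gene has 1. With the limit for bright genes at 7, chosen after seeing the data, 4 of 25 rose and 4 fell, at 9, 2 of 9 rose and 0 fell, and by the 48 h arrays alone, 4 of 18 rose and 0 fell. Weak signals are the limit: background probe sets stood at 3.10 at 0 h and 3.69 at 48 h, so changes of genes near that level say little.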
